A study of Mus musculus with 6 samples.

Results

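The inflammasome and NAIP genes examined here were Nlrp3, Pycard, Casp1, Casp4, Gsdmd, Il1b, Il18, Naip1, Naip2 and Naip5. They were taken by symbol from the table of RNA-seq values of cells labelled bone marrow mesenchymal stem cells (BMMSCs), adherent cells cultured from the marrow of mouse long bones, and were 10 of its 36870 distinct symbols. All 10 were found. Of these, 9 had a mean of at least 0.1 RPKM (reads scaled to the length of the gene and the size of the library) over the 6 libraries and were tested with 13266 genes in all, and Il1b was below that level. The cells came from C57BL/6 mice, for which the labels name no genotype, and were labelled passage 2, whereas the culture methods name an earlier passage. Total RNA was sequenced in 3 control libraries and 3 libraries of cells treated with siRNAs against both Tet1 and Tet2 (siTet1/Tet2), enzymes that oxidise 5-methylcytosine. The labels describe the control as a non-targeting siRNA, and the sequencing methods call it vehicle. Whether replicates were separate cultures or animals was not stated, so p-values measure only the spread between these libraries, which may be technical.

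Inflammasomes are cytosolic complexes that are assembled when a sensor meets a microbial product or a sign of cell damage. NLRP3 responds to potassium efflux, for instance through the ATP-gated channel P2X7, and recruits caspase-1 through the adaptor ASC, encoded by Pycard. Caspase-1 matures IL-1β and IL-18 and cuts gasdermin D into a pore, and caspase-11, encoded by Casp4 in the mouse, cuts gasdermin D after binding bacterial lipopolysaccharide. NAIP proteins bind bacterial flagellin or parts of the type III secretion system and then engage NLRC4, and these genes are best known from macrophages rather than stromal cells.

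The NAIP genes form a cluster of paralogs on the minus strand of chromosome 13, and their start regions show how close some of them are. Naip2 lies at chr13:100144063-100202092, Naip5 at chr13:100211739-100246323, Naip6, a further paralog, at chr13:100281121-100317674 and Naip1 at chr13:100407764-100452869 (GRCm38, GENCODE M21). The RefSeq promoter windows (GRCm38.p6, 250 bases before to 50 after the start, on the strand of the gene) are given here for Naip2 (chr13:100202073-100202372), Naip5 (chr13:100247287-100247586) and Naip1 (chr13:100452815-100453114). Capitals mark runs of at least 11 bases found in the window of another of the 4 paralogs.
Naip2: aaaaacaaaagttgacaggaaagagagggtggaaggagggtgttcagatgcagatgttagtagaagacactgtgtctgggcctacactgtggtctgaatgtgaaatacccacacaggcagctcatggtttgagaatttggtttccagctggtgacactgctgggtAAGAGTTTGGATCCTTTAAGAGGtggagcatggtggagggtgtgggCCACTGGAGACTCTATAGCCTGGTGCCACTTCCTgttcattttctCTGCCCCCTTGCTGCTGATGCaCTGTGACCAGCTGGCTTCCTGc
Naip5: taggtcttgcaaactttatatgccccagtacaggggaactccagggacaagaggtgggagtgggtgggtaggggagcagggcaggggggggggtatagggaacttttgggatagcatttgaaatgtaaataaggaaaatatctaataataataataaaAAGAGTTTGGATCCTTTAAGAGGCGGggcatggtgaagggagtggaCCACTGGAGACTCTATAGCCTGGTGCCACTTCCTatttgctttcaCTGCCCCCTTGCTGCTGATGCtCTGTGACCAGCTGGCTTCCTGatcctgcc
Naip1: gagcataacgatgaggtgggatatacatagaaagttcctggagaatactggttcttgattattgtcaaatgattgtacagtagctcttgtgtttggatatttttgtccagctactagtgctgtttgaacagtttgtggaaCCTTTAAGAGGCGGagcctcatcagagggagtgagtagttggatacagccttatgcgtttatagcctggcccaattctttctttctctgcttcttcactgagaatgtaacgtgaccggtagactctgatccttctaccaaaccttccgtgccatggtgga
Naip2 and Naip5 shared 4 such runs, the longest of 34 bases, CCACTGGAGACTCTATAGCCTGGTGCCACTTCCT, which began 39 bases before the start of Naip2 and 46 before that of Naip5. The run CCTTTAAGAGG was the longest present in all of Naip1, Naip2 and Naip5. Their windows are among the 30 of 32851 RefSeq promoters that held it on either strand (0.0913%). It was picked from these windows, so that share is only a description. The Naip6 window shared no run of that length with any of the 3, and its longest match was 9 bases. That window (chr13:100316567-100316866) lies inside the GENCODE gene, and the window of Naip5 lies outside its own. The RefSeq starts may therefore not be equivalent, and this comparison holds only for these windows.

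Casp4 (chr9:5308828-5336783) follows Casp1 (chr9:5298517-5307265) on the plus strand of chromosome 9. One of the 2 RefSeq windows of Casp4 (chr9:5308599-5308898, GRCm38.p6) is shown because Casp4 had the largest decrease among the members, with capitals marking matches to the NF-kB motif.
Casp4: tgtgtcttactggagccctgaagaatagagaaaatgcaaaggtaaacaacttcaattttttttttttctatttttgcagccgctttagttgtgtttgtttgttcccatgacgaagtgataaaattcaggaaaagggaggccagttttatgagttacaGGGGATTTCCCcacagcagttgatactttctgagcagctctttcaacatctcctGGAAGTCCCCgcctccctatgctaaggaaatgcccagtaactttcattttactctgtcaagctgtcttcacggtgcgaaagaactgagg
The matches stood 93 to 83 and 39 to 30 bases before the start. RefSeq windows were found for 10 of the 11 genes, 12 in all, and Gsdmd was not among them. NF-kB matches were present in 4 windows (both of Casp4, 1 of the 2 of Nlrp3, and that of Naip5), and so in 3 of the 10 genes, compared with 8.46% of the 32851 promoters. The 2 windows of Casp4 overlap and hold the same pair of matches. None of the 12 held the interferon-stimulated response element GAAANNGAAA (3.44% of all promoters) or the gamma-activated sequence TTCNNNGAA (8.30%), on either strand. Their CpG counts ranged from 0 in Naip2 to 6 in Naip1, with a median of 7 over all promoters. These matches are descriptions of letters, and no binding or methylation was measured in these libraries.

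The labels were first checked with the targeted genes. Tet2 was 2.57, 4.08 and 3.71 RPKM in the control libraries and 0.358, 0.238 and 0.202 in the siTet1/Tet2 libraries (log2 fold change -1.80, adjusted p = 2.88e-05, limma with Benjamini-Hochberg adjustment), and Tet1 was near the lowest listed value, at 0.032 to 0.098 and 0.001 to 0.01. The labelled cell type was checked with marker genes. Macrophage markers were abundant in every library, summing to 12381 to 15730 RPKM in the control group and 20963 to 24398 in the siTet1/Tet2 group. Without Lyz2, the lysozyme gene and the most abundant of the 20, the ranges were 8834 to 10716 and 11120 to 11818. Stromal markers summed to 1127 to 1633 and 144 to 290 RPKM, and of the 12, Lepr and Thy1 were near 0 in every library. The most abundant of the 12 were Col1a1, Col1a2 and Ly6a. They averaged 488, 437 and 152 RPKM in control and 72.1, 76.4 and 16.4 in siTet1/Tet2 libraries. The 11 genes of the interferon response that were matched, of 12 listed, summed to 923 to 1007 and 59.5 to 82.5 RPKM. Neutrophil markers summed to 3.43 to 3.57 and 9.43 to 16.3 RPKM, with S100a9 at the lowest listed value in all 6 libraries. The 2 of them that were tested moved in opposite directions, S100a8 from 1.83, 2.22 and 1.81 to 16.1, 12.8 and 9.20 RPKM and Camp from 1.64, 1.15 and 1.54 to 0.001, 0.172 and 0.001. Lymphoid markers summed to at most 1.36 RPKM. The abundance of macrophage markers goes against libraries of the labelled cell type alone. Stromal markers were mixed, with Col1a1, Col1a2 and Ly6a abundant in control libraries and Lepr and Thy1 near 0. BMMSC is kept here only as the name in the labels. These lists moved together with the siRNA treatment, so every result on the members stands beside them, and their part in those results was not tested. In bulk RNA, fewer cells of a type and less RNA per cell cannot be told apart.

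**Figure D1:**
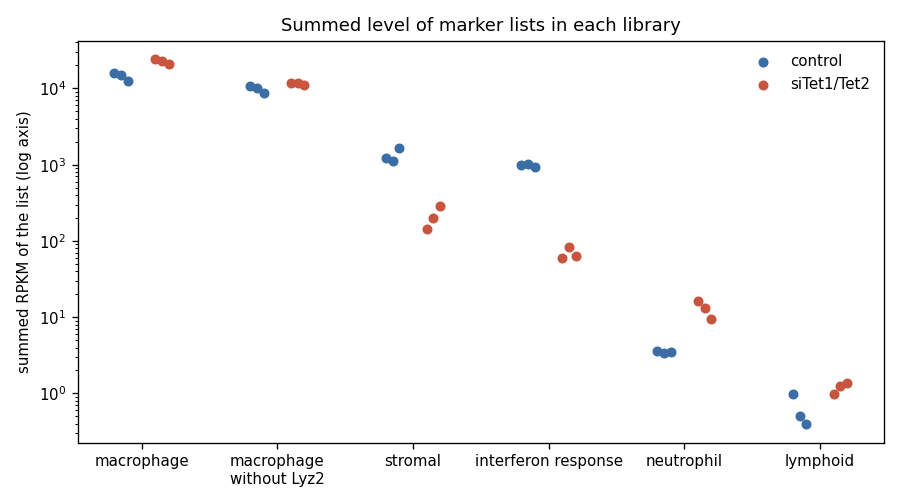
Summed RPKM (log axis) of each marker list in the 3 control (blue) and 3 siTet1/Tet2 (red) libraries, 1 point per library. The stromal sum was 1127 to 1633 in control and 144 to 290 in siTet1/Tet2 libraries, and the macrophage sum without Lyz2 was 8834 to 10716 and 11120 to 11818.

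Of the 9 members tested, 4 fell (Nlrp3, Casp1, Casp4 and Il18), 3 rose (Naip1, Naip2 and Naip5) and 2 did not pass an adjusted p of 0.05 (Gsdmd and Pycard). Among all 13266 genes tested, 29.8% passed in the lower and 14.7% in the higher direction. Values of the 2 groups did not overlap for 4 members in the lower and 3 in the higher direction, compared with 35.9% and 19.8% of all genes. Only Casp4 was altered by the thresholds of the study (unadjusted p below 0.05 and fold change over 2) in the lower direction, compared with 5.63% of all genes, and no member was altered in the higher direction, compared with 0.95%. That last count holds on the log2(RPKM + 1) scale, and was 1, Naip1, with pseudocounts of 0.1 or 0.01 or by the ratio of group means. The median log2 fold change was -0.13 over the members and -0.09 over all genes tested. The balance of all calls depended on scaling: 66.9% of them were lower with the deposited RPKM, 52.7% after median ratio scaling, 42.1% after quantile normalization and 86.7% when libraries were centred on the macrophage markers.

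**Figure D2:**
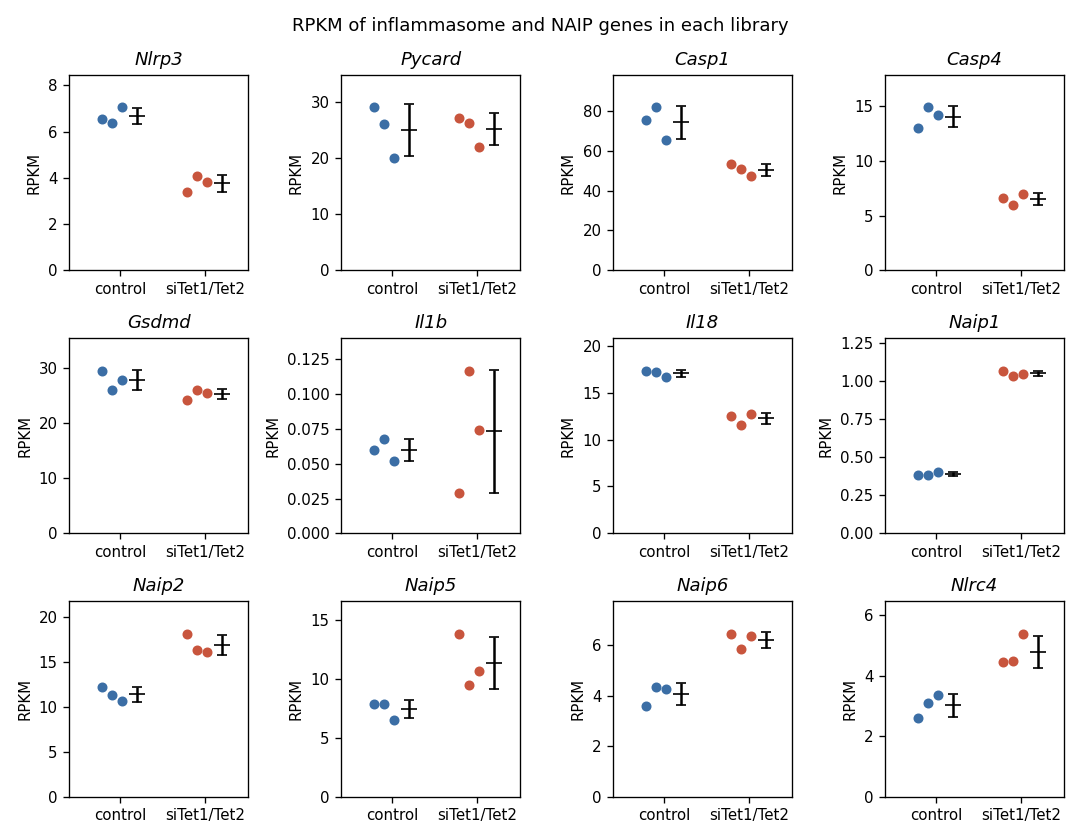
RPKM of each member, and of Naip6 and Nlrc4, in the 3 control (blue) and 3 siTet1/Tet2 (red) libraries, with the mean and SD (n = 3) as black bars on a linear axis from 0. The groups did not overlap for Nlrp3, Casp1, Casp4, Il18 and the 4 NAIP genes, whereas Pycard, Gsdmd and Il1b overlapped.

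Nlrp3, the sensor, was 6.57, 6.38 and 7.05 RPKM in the control libraries and 3.37, 4.09 and 3.82 in the siTet1/Tet2 libraries. Every siTet1/Tet2 library was below every control library. The mean fell from 6.67 ± 0.347 to 3.76 ± 0.361 (SD, n = 3 each), 56.4% of control, with a log2 fold change of -0.69 ± 0.0917 (SE) and an adjusted p of 0.000512 (limma on log2(RPKM + 1), Benjamini-Hochberg). The pseudocount of 1 makes the change of a gene of low level look smaller than it was. Nlrp3 is at chr11:59541568-59566956.

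Pycard, which encodes the adaptor ASC, was 29.1, 26.1 and 20.1 RPKM in the control libraries and 27.2, 26.3 and 22.0 in the siTet1/Tet2 libraries. The groups overlapped, and the spread within each was wide. The log2 fold change was 0.02, with a 95% interval of -0.30 to 0.33 and an adjusted p of 0.930 (limma, Benjamini-Hochberg), so neither a decrease nor an increase within that interval can be told from the spread. Its sign changed with scaling, to -0.04 when libraries were rescaled to the same sum and to -0.15 when they were centred on the macrophage markers. Exons of Pycard (chr7:127989708-127993867) overlap the antisense gene Gm45205, and without a stated use of strand their reads cannot be told apart.

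Casp1, the effector of these complexes, had the highest level of the 10 members. It was 75.8, 82.0 and 65.6 RPKM in the control libraries and 53.3, 51.0 and 47.4 in the siTet1/Tet2 libraries, with no overlap. Its mean fell from 74.5 ± 8.28 to 50.6 ± 2.98 (SD, n = 3 each), 67.9% of control (log2 fold change -0.54 ± 0.0889, adjusted p = 0.00152, limma with Benjamini-Hochberg adjustment).

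Casp4, the gene of caspase-11, was 13.1, 14.9 and 14.3 RPKM in the control libraries and 6.59, 5.95 and 6.996 in the siTet1/Tet2 libraries. The groups were far apart relative to their spread, and the mean fell from 14.1 ± 0.947 to 6.51 ± 0.529 (SD, n = 3 each), 46.2% of control. The log2 fold change was -1.01 ± 0.0873 with an adjusted p of 5.90e-05 (limma, Benjamini-Hochberg). That value is at the edge of the fold threshold: Casp4 was not altered by it after median ratio scaling or quantile normalization, or without control replicate 2, control replicate 3 or siTet1/Tet2 replicate 2, although its adjusted p remained at most 0.00511 in every alternative. Within a library, the log2 ratio of Casp4 to Casp1, taken on RPKM + 1, was -2.45, -2.38 and -2.13 in the control group and -2.84, -2.91 and -2.60 in the siTet1/Tet2 group. Casp4 was therefore lower relative to Casp1 in each siTet1/Tet2 library than in any control library, by -0.46 on average (exact permutation test, two-sided, p = 0.1, the smallest that 3 against 3 libraries allow, and 0.133 adjusted over the 4 such tests).

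Gsdmd, the gene of the pore-forming gasdermin D, was 29.6, 26.0 and 27.9 RPKM in the control libraries and 24.3, 26.1 and 25.5 in the siTet1/Tet2 libraries. The second control library lay among the siTet1/Tet2 values, and the groups overlapped. The log2 fold change was -0.13 with a 95% interval of -0.29 to 0.02 and an adjusted p of 0.149 (limma, Benjamini-Hochberg). Gsdmd is at chr15:75862327-75867408.

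Il18 was 17.4, 17.2 and 16.6 RPKM in the control libraries and 12.5, 11.6 and 12.7 in the siTet1/Tet2 libraries. The 2 groups were narrow and did not overlap, and the mean fell from 17.1 ± 0.390 to 12.3 ± 0.606 (SD, n = 3 each), 71.9% of control (log2 fold change -0.45 ± 0.0677, adjusted p = 0.00103, limma with Benjamini-Hochberg adjustment). Il18 is at chr9:50554827-50581840.

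Il1b, the other cytokine that caspase-1 matures, was 0.060, 0.068 and 0.052 RPKM in the control libraries and 0.029, 0.117 and 0.074 in the siTet1/Tet2 libraries. At the estimated depth these values stand for about 3, 3 and 2 reads and about 2, 6 and 4 reads, so a difference was not detectable at this depth. Without the filter on low genes, the log2 fold change of Il1b was 0.02 (limma, Benjamini-Hochberg adjusted p = 1). Il1b (chr2:129364570-129371139) overlaps the antisense gene Il1bos, so even these reads cannot be assigned with certainty. Of the 2 cytokines, only Il18 was therefore measured above the filter, and Il1a, which encodes IL-1α, was 1.70, 2.34 and 2.02 RPKM in the control libraries and 2.10, 1.99 and 2.11 in the siTet1/Tet2 libraries. Il1a was chosen after its values were seen. The ratio of Il1b to Il18, one of the 4 exact tests, is not given, since on RPKM + 1 it only restates Il18.

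Naip1, whose product binds the needle protein of the type III secretion system, was the lowest of the NAIP genes. It was 0.382, 0.381 and 0.402 RPKM in the control libraries and 1.07, 1.03 and 1.05 in the siTet1/Tet2 libraries, or about 78, 69 and 71 reads and about 224, 219 and 203 reads at the estimated depth. The groups were narrow and far apart. The mean rose from 0.388 ± 0.0118 to 1.05 ± 0.0173 (SD, n = 3 each), 2.70-fold, which on the log2(RPKM + 1) scale is 0.56 ± 0.0626 (adjusted p = 0.000201, limma with Benjamini-Hochberg adjustment). With pseudocounts of 0.1 or 0.01, or by the ratio of group means, Naip1 was altered in the higher direction. Its adjusted p was 0.0541 when libraries were centred on the macrophage markers. That centring shifts log2(RPKM + 1) by a constant, which for a gene of so low a level is not a rescaling of RPKM.

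Naip2, whose product binds the inner rod of that secretion system, was 12.2, 11.3 and 10.6 RPKM in the control libraries and 18.1, 16.3 and 16.1 in the siTet1/Tet2 libraries. It had the highest level of the NAIP genes in all 6 libraries, and its groups did not overlap. The mean rose from 11.4 ± 0.793 to 16.8 ± 1.11 (SD, n = 3 each), 148% of control (log2 fold change 0.53 ± 0.0803, adjusted p = 0.00103, limma with Benjamini-Hochberg adjustment).

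Naip5, a flagellin receptor, was 7.87, 7.90 and 6.54 RPKM in the control libraries and 13.8, 9.50 and 10.7 in the siTet1/Tet2 libraries. The first siTet1/Tet2 library was well above the other two, and every siTet1/Tet2 library was above every control library. Its log2 fold change was 0.54 ± 0.135 (SE, adjusted p = 0.0127, limma with Benjamini-Hochberg adjustment), with an adjusted p of 0.145 when no filter on low genes was used and 0.0822 when libraries were centred on the macrophage markers. The log2 ratio of Naip5 to Naip2, also on RPKM + 1, differed by 0.01 between the groups (exact permutation p = 0.9), with values from -0.62 to -0.47 in the control group and from -0.72 to -0.36 in the siTet1/Tet2 group.

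Reads of the NAIP paralogs can be shared, and how the authors treated reads matching several places is not given. Of the windows of 100 bases, the read length, along the longest transcript, 13.6% in Naip1, 4.55% in Naip2, 16.2% in Naip5 and 6.26% in Naip6 also occur in a transcript of another gene, compared with 0% in each of the other 7 members. The gene sharing most was Naip3 for Naip1 (10.7%) and for Naip5 (8.72%), Naip1 for Naip2 (2.92%) and Naip5 for Naip6 (4.89%). Naip1, Naip2, Naip5 and Naip6 were therefore also summed. Naip3 and Naip3-ps1, which share windows with each of them, were not included, so the sum does not cover all reads that may be shared. The sum of Naip1, Naip2, Naip5 and Naip6 was 24.0, 23.9 and 21.8 RPKM in the control libraries and 39.5, 32.7 and 34.2 in the siTet1/Tet2 libraries. It was higher in 3 of 3 siTet1/Tet2 libraries than in any control library, at 35.4 ± 3.57 against 23.2 ± 1.25 (SD, n = 3 each), 1.52-fold (exact permutation test, two-sided, p = 0.1, the smallest possible, and 0.133 adjusted over the 4 tests). Naip2 took 48.8% of the sum in the control and 47.6% in the siTet1/Tet2 group, Naip5 31.9% and 31.8%, Naip6 17.6% and 17.6%, and Naip1 1.68% and 2.98%.

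Naip6, a flagellin receptor that was no member and was chosen for the sum, was 3.58, 4.35 and 4.27 RPKM in the control libraries and 6.45, 5.85 and 6.35 in the siTet1/Tet2 libraries (log2 fold change 0.51 ± 0.0948, adjusted p = 0.00289, limma with Benjamini-Hochberg adjustment). Nlrc4, which encodes the partner of the NAIP proteins, was 2.61, 3.08 and 3.37 RPKM in the control libraries and 4.45, 4.49 and 5.38 in the siTet1/Tet2 libraries. Nlrc4 rose by 0.52 ± 0.109 on the log2 scale (adjusted p = 0.00514, limma with Benjamini-Hochberg adjustment) and was chosen after its values were seen. When libraries were centred on the macrophage markers, the adjusted p was 0.127 for Naip6 and 0.140 for Nlrc4, and without the filter on low genes that of Nlrc4 was 0.0509.

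**Figure D3:**
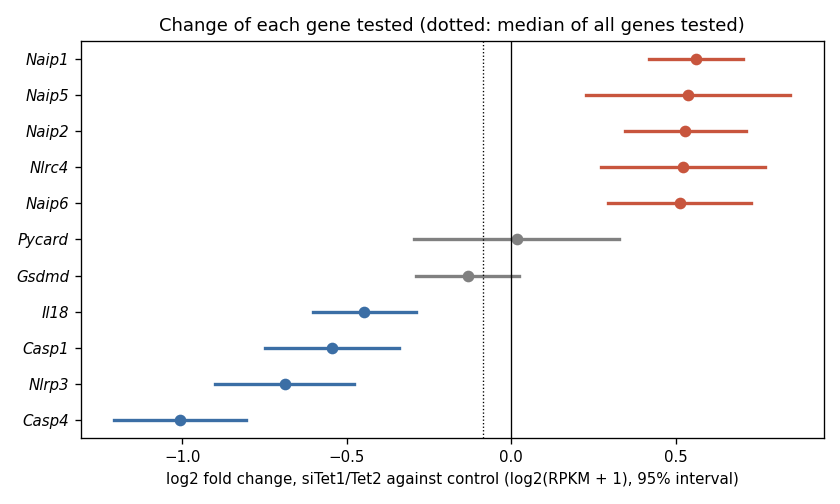
Log2 fold change of siTet1/Tet2 against control on the log2(RPKM + 1) scale for the 9 members tested, Naip6 and Nlrc4, with 95% intervals from limma; blue genes passed as lower, red as higher, grey did not pass, and the dotted line is the median of all genes tested. The fold changes run from -1.01 for Casp4 to 0.56 for Naip1, and the NAIP genes and Nlrc4 lie between 0.51 and 0.56.

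Other genes of the pathway were read from 7 lists by role, 65 genes of which 59 were tested. In all, 23 fell, 13 rose and 23 did not pass, and 10 were altered in the lower direction and 0 in the higher. Over all genes tested, 29.8% fell, 14.7% rose and 5.63% were altered in the lower direction, and the counts of each list are to be read beside these shares. The median log2 fold change of the 59 was -0.03. Of the 9 other sensors tested, 1 fell, 4 rose and 4 did not pass. Aim2, a DNA sensor and the most abundant of them, was 8.93, 9.95 and 9.98 RPKM in the control libraries and 8.28, 7.08 and 8.13 in the siTet1/Tet2 libraries (log2 fold change -0.27, adjusted p = 0.0381, limma with Benjamini-Hochberg adjustment). That call was lost in 8 alternatives, among them median ratio scaling (adjusted p = 0.138). Nod1 and Nlrp1b, which sense peptidoglycan and bacterial proteases, were 7.15 ± 0.214 and 7.60 ± 0.418 RPKM and 6.61 ± 0.939 and 7.25 ± 0.95 RPKM in the control and siTet1/Tet2 groups (SD, n = 3 each), and neither passed.

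Upstream of NLRP3, 3 of 9 genes fell, 3 rose and 3 did not pass. P2rx7, the channel gene that the study examined in vesicle release, was 32.1, 29.7 and 32.9 RPKM in the control libraries and 5.85, 7.90 and 7.80 in the siTet1/Tet2 libraries. It fell 4.39-fold by the ratio of means (adjusted p = 7.05e-06, limma with Benjamini-Hochberg adjustment), whereas Nlrp3 fell 1.77-fold. The study itself had named P2rX7 among the altered genes of this RNA-seq. From assays of the P2rX7 promoter, the study proposes the gene as a direct target of Tet1 and Tet2. P2rx4, another ATP-gated channel, rose from 77.4 ± 6.41 to 104 ± 2.69 RPKM (SD, n = 3 each; limma adjusted p = 0.00172). Panx1, a channel through which ATP leaves cells, was 14.1, 13.1 and 12.4 and then 22.9, 26.1 and 25.1 RPKM (log2 fold change 0.86, limma adjusted p = 6.95e-05), and was chosen after its values were seen. Clic4, a chloride intracellular channel gene, fell from 150 ± 3.12 to 98.8 ± 5.80 RPKM, and Clic1, its relative, was 398 ± 43.0 and 367 ± 14.1 (limma adjusted p = 0.353).

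Among priming genes, which raise inflammasome transcription through Toll-like receptors and NF-kB, 2 of 11 fell, 2 rose and 7 did not pass. Myd88, the adaptor of most of these receptors, fell from 44.7 ± 2.55 to 30.8 ± 0.540 RPKM, and Cd14, a co-receptor for lipopolysaccharide, rose from 38.8 ± 4.25 to 50.5 ± 2.64 (SD, n = 3 each, limma adjusted p = 0.00878). The call of Cd14 was lost without the filter on low genes (adjusted p = 0.0998) and when libraries were centred on the macrophage markers (0.0879). Rela, a subunit of NF-kB, was 35.9 ± 0.771 and 37.7 ± 2.36 RPKM (limma adjusted p = 0.414). The other gene that fell was the Toll-like receptor gene Tlr4, from 26.4 ± 2.00 to 16.4 ± 1.12 RPKM (limma adjusted p = 0.000315). The other that rose was Irak4, from 17.6 ± 0.390 to 23.0 ± 0.355 RPKM (limma adjusted p = 0.00130). Tlr4 and Irak4 were chosen after their values were seen.

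The list around caspase-11, which holds interferon receptor subunits, interferon regulatory factors, guanylate-binding proteins and the immunity-related GTPase Irgb10 (Gm12250), had 6 genes that fell, 1 that rose and 3 that did not pass of 10. Its median log2 fold change was -1.17. Guanylate-binding proteins coat bacteria and expose lipopolysaccharide to caspase-11. Gbp2 was 20.4, 23.0 and 20.1 RPKM in the control libraries and 2.23, 2.47 and 1.47 in the siTet1/Tet2 libraries, a 10.3-fold decrease, and Gbp3, Gbp5, Gbp7 and Gm12250 fell by 6.90-fold to 9.37-fold. Irf1, a transcription factor of the interferon response, fell from 36.5 ± 1.67 to 18.3 ± 1.04 RPKM (SD, n = 3 each). In contrast, Irf8, a factor of the myeloid lineage, was 61.5 ± 2.28 and 65.6 ± 2.49 RPKM, and Ifnar2, a subunit of the interferon receptor, 109 ± 9.16 and 110.4 ± 6.12. All 11 matched genes of the separate interferon-response list fell (Mx1, the twelfth listed, was not analysed here), with a median log2 fold change of -4.32, beside the -1.01 of Casp4, and the part of that difference in the caspase-11 list was not tested.

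Among genes of execution, 4 of 8 tested fell, 1 rose and 3 did not pass. Casp12, which lies next to Casp4, was 3.49, 3.84 and 3.27 RPKM in the control libraries and 0.348, 0.535 and 0.616 in the siTet1/Tet2 libraries (7.07-fold lower, log2 fold change -1.60, adjusted p = 1.13e-05, limma with Benjamini-Hochberg adjustment). Ninj1, whose product ruptures the membrane after pore formation, rose from 119 ± 23.4 to 214 ± 8.55 RPKM (limma adjusted p = 0.00111). Casp8, an initiator caspase of apoptosis, fell by 0.19 on the log2 scale (limma adjusted p = 0.0291), a call lost in 7 alternatives. Hmgb1, a chromatin protein released from dying cells, was 18.0 ± 0.751 and 18.5 ± 0.453 RPKM (SD, n = 3 each).

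Of the genes that receive or block the cytokines, 3 of 6 tested fell, 2 rose and 1 did not pass. Il18bp, the secreted antagonist of IL-18, was 49.3, 50.9 and 41.3 RPKM in the control libraries and 98.3, 93.4 and 79.2 in the siTet1/Tet2 libraries, a 1.92-fold increase (adjusted p = 0.000214, limma with Benjamini-Hochberg adjustment). Il18 itself fell in the same libraries. Il1rn, the IL-1 receptor antagonist, fell from 24.6 ± 1.96 to 17.2 ± 2.60 RPKM (limma adjusted p = 0.00767, and 0.111 without the filter on low genes), and Il1r1, the signalling receptor of IL-1, fell from 1.72, 1.43 and 1.73 to 0.064, 0.106 and 0.197 RPKM. Il1rap, its co-receptor, was 3.92 ± 0.0586 and 3.31 ± 0.382 RPKM (limma adjusted p = 0.121).

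Of the 6 inhibitors tested, 4 fell, 0 rose and 2 did not pass. Pydc4, a pyrin-domain gene, was 15.9, 17.9 and 18.7 RPKM in the control libraries and 0.043, 0.297 and 0.250 in the siTet1/Tet2 libraries (log2 fold change -3.95, adjusted p = 5.16e-07, limma with Benjamini-Hochberg adjustment). Trim30a, which restrains NLRP3 activation, fell from 68.0 ± 4.46 to 16.8 ± 0.351 RPKM, and Tnfaip3, which restrains NF-kB, from 12.2 ± 1.70 to 9.35 ± 0.453 (SD, n = 3 each). The call of Tnfaip3 was lost in 7 alternatives.

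**Figure D4:**
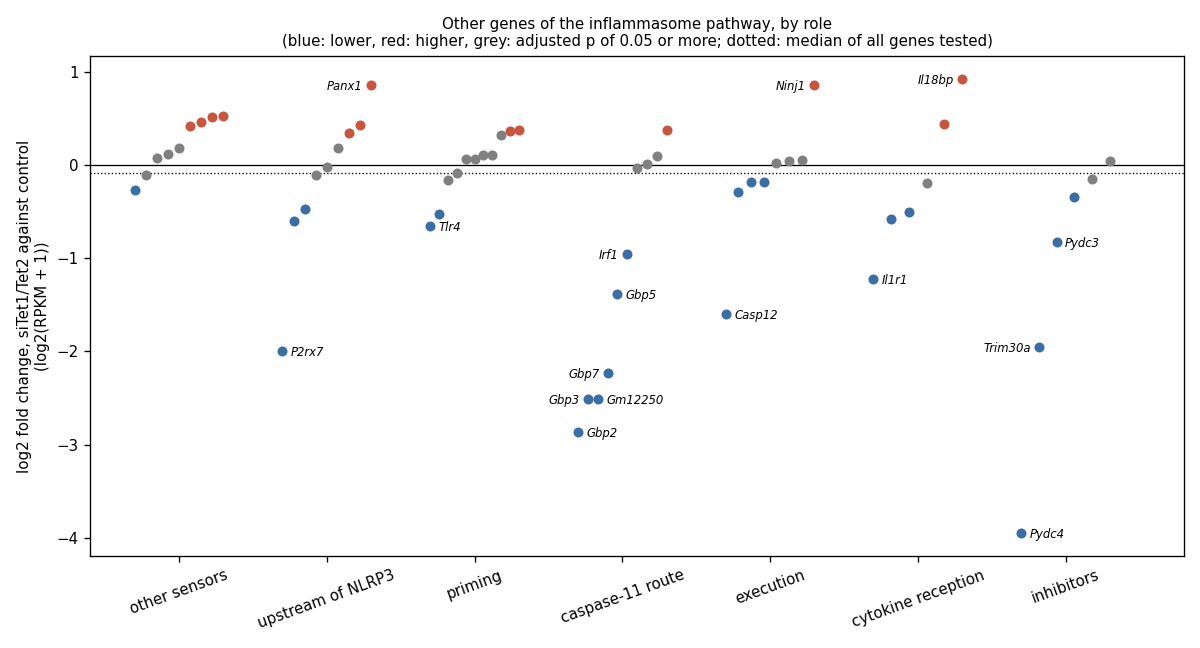
Log2 fold change of siTet1/Tet2 against control on the log2(RPKM + 1) scale for the 59 other pathway genes tested, 1 point per gene, grouped by role; blue genes passed as lower, red as higher, and grey did not pass an adjusted p of 0.05. The guanylate-binding proteins, Gm12250, P2rx7, Casp12, Il1r1, Trim30a and Pydc4 lie below -1, and no gene lies above 1.

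Genes whose pattern over the 6 libraries was most like that of a member were found by Pearson correlation of log2(RPKM + 1), given as a description since the 2 groups alone set much of it. Nlrp3 was most like Uba1 (r = 0.999) and Map2k1 (r = 0.999), Casp1 most like Dbr1 (r = 0.999) and Casp4 most like Tcea1 (r = 0.999). As many as 1577 genes exceeded r = 0.95 with Nlrp3 and 1532 with Casp4, so such likeness is common here. Naip1 was most like Slc22a4 (r = 1.000) and Naip2 most like Tmem165 (r = 0.999), with 806 and 685 genes above 0.95. Naip5, Pycard and Gsdmd had fewer, at 43, 74 and 19 genes, and were most like Fam118b (r = 0.995), Dnajc30 (r = 0.995) and Apex2 (r = 0.998).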

How the data were processed

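RNA from 3 control and 3 siTet1/Tet2 libraries of mouse BMMSCs had been sequenced as paired-end reads of 100 bases. The authors trimmed adaptors, mapped reads to GRCm38 and estimated abundance with DNASTAR Lasergene 15.0, and they deposited RPKM values (FPKM in their methods). The deposited P value column, the authors' own comparison of the groups, was not used. The annotation, use of strand and treatment of reads with several matches are not given in the sources used here. The files give no read totals. In each library, depth was estimated as the value that put the most low values within 0.1 of whole reads. It was 32400000 to 37500000 reads in control and 35600000 to 38700000 in siTet1/Tet2 libraries. The share reached was 54.4% to 58.5%, too low for a count test, and 20% would come by chance at a fixed depth. Since the depth was chosen to maximise that share, the share is no separate check of the depth.

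Where a symbol was repeated (37 symbols), its most abundant row was used. Genes averaging 0.1 RPKM or more were compared, two-sided, as log2(RPKM + 1) with the lmFit and trended eBayes functions of limma 3.58.1 (R 4.3.3), with Benjamini-Hochberg adjustment. A gene passed at an adjusted p under 0.05. Log2 ratios of RPKM + 1 and the NAIP sum were tested by exact permutation (scipy 1.17.1). The genes named were the members, Tet1 and Tet2, the 3 most abundant and the altered genes of each pathway list, and, for likeness, the genes with the highest correlation with a member and a mean of at least 1 RPKM; exceptions are stated. Members and lists were chosen with earlier results of these data known. In the lists, 2 genes were matched by an older symbol. Positions came from GENCODE M21 and promoters from RefSeq.

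Alternatives comprised other pseudocounts (0.1 and 0.01), no filter or one at 1 RPKM, 4 other scalings, eBayes without trend, the replicate block, each library left out, summed rows, and other thresholds. Centring on the macrophage markers shifted log2(RPKM + 1) of each library by the median of those markers. That median was 8.65 in control replicate 3 and 8.95 to 9.08 in the other libraries. Replicate numbers are shared by both groups. Deviations from the group means correlated at 0.149, 0.117 and 0.462 for numbers 1, 2 and 3, all above 0.1, so libraries were paired by number in the fit with the replicate block, although no source says what a number stands for and control 1 with siTet1/Tet2 2 gave 0.332. With the block, 4 members were lower and 3 higher.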

Additional observations from a re-analysis of the deposited data

How the results depend on the processing

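The 4 decreases held in all alternatives. The count of members that rose (3) was 1 when libraries were centred on the macrophage markers, where the median of all genes moved by -0.16; quantile normalization moved it by 0.14. The same count was 2 without the filter on low genes, where Naip5 did not pass, and 2 at a mean of at least 1 RPKM, where Naip1 was not tested. The count altered in the lower direction (1) was 0 after median ratio scaling and quantile normalization, and 0 to 1 with a library left out. The count altered in the higher direction (0) was 1, Naip1, with pseudocounts of 0.1 or 0.01 and with the ratio of group means. Leaving out a library gave a Naip5 to Naip2 difference of -0.082 to 0.10, and log2 fold changes of -0.13 to 0.13 for Pycard and -0.048 to 0.072 for Ifnar2. Genes that had not passed changed sign when libraries were centred on the macrophage markers: Pycard -0.15, Tet3 -0.043, Nod1 -0.087, Nlrp1b -0.047, Rela -0.10, Ifnar2 -0.15, Irf8 -0.074 and Hmgb1 -0.13. When libraries were rescaled to the same sum, Pycard was -0.045, Ifnar2 -0.048 and Hmgb1 -0.023. Of 729 values of 43 genes over the alternatives, 675 kept their direction and call, 31 lost and 7 gained the call, and 16 changed sign. The cause was not tested in any of these. The replicate block changed no call of a member, and the NAIP sum differed by 12.2 RPKM with and without the pairing; its exact p of 0.25 is the smallest that 3 pairs allow. Exact tests of 3 against 3 libraries cannot pass 0.05, the depth is an estimate, and the RPKM files hold no counts, so Il1b cannot be resolved.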

Other observations

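Within 500000 bases of the NAIP cluster on chromosome 13, 15 other genes were tested. Gtf2h2, a subunit of the transcription factor TFIIH and the nearest gene beside Naip1, was 11.7, 11.9 and 10.2 RPKM in the control libraries and 17.3, 18.5 and 15.2 in the siTet1/Tet2 libraries (log2 fold change 0.55 ± 0.0944, adjusted p = 0.00198, limma with Benjamini-Hochberg adjustment). Ccdc125 and Mccc2 also rose, with log2 fold changes of 0.53 and 0.28. In contrast Smn1, the gene of the survival motor neuron protein beside Naip2, fell from 22.8 ± 1.84 to 17.9 ± 0.659 RPKM (SD, n = 3 each, limma adjusted p = 0.00777), and Rad17 and Taf9 fell by 0.28 and 0.32. The other 9 genes, among them Serf1 between Smn1 and Bdp1, did not pass. In total 3 of these neighbours rose, 3 fell and 9 did not pass, beside 14.7% and 29.8% of all genes tested that rose and fell.

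Within the same distance of the caspase cluster on chromosome 9, Casp1, Casp4 and Casp12 were the only genes tested, and all 3 fell. Their means in siTet1/Tet2 libraries were 67.9%, 46.2% and 14.1% of control, in the order of their positions on the chromosome. All of these neighbours were chosen after results were seen, and no test of position was made.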
